A study of Mus musculus with 9 samples.

Results

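The transcripts described here are those of named pseudogenes on an array of mouse liver RNA. A probe was taken when the RefSeq accession or RIKEN clone in its identifier belonged to a gene whose symbol ends in -ps or in -ps and a number, such as Speer5-ps1 or Olfr856-ps1. The rule found 50 of 97836 probes, 45 through an accession and 5 through a clone. They stand for 48 of the 5398 genes that could be named in this way, over 5867 probes, and for 35 parent gene families. RefSeq lists 45 of the 48 genes as transcribed pseudogenes, Vmn2r-ps105 as a pseudogene, Slfn10-ps as a noncoding RNA of another kind and H2-T-ps as protein coding.

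A pseudogene is a copy of a gene that has lost the ability to make the parent's protein. Some arise when a stretch of the genome is duplicated and lie beside their parent family, and others arise when a spliced mRNA is copied back into the genome and can lie anywhere. Some are transcribed, from a promoter of their own or of a neighbouring gene, and a few of these RNAs have been given roles in gene regulation. Because a pseudogene keeps much of its parent's sequence, a hybridisation probe for one can also bind RNA of the other. The probe sequences were not used here, so the part of cross-hybridisation in any value below was not tested.

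The livers were taken at the age of 20 weeks from male mice of the inbred strain C57BL/6J. Control mice ate chow for 17 weeks, and no gavage is recorded for them. Mice of the high fat group ate a diet with 45% of its energy from fat for 17 weeks and were given saline by stomach tube during the last 5 weeks. Mice of the metformin group ate the same high fat diet for 17 weeks and were given 3 mg/kg of metformin, a glucose-lowering drug, each day by the same route for the last 5 weeks. Each of the 3 groups had 3 liver pools of 4 mice, so that 9 arrays covered 36 mice and a pool averages over its mice. The comparison of the high fat group with controls asks about diet with saline gavage, that of the metformin group with the high fat group asks about the drug, and that of the metformin group with controls takes both at once. These comparisons share arrays in pairs and are not independent of each other. In pooled whole liver, fewer cells of a type and less RNA per cell cannot be told apart.

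Levels are log2 signals from which the 75th percentile of the same array was subtracted, so that a level of 0 equals that percentile and a difference of 1 is a doubling. Levels of different probes are not compared with each other. Of the spots on each array, 53.0% to 63.5% were well above background and 0 were saturated. The first control pool stood apart: 600 tested probes lay more than 2 log2 units above the median of the other arrays there, against 19 to 80 on the other arrays. It was the highest of the 9 arrays for 10 of the 27 tested pseudogene probes (37.0%), and for 20.4% of all tested probes. The controls and the first high fat pool were on slide 1, the other high fat pools and the first and second metformin pools on slide 2, and the third metformin pool alone on slide 3, so that controls and metformin pools shared no slide. None of the cell type markers listed for hepatocytes, immune, stellate, endothelial and bile duct cells, testis or olfactory neurons had a probe that could be named through these identifiers, so the cell makeup of the pools was not checked here.

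Detection is given by the role of the parent family, as a description with no test between roles. The roles were assigned by hand from the gene symbols, with earlier results of these data known, and the tissues that express the parents were not checked. Nlrp5-ps was placed with the immune families by its name, although its parent acts in the oocyte and early embryo. The 8 probes for pseudogenes of liver plasma proteins and metabolic enzymes, namely Adh6-ps1, C4bp-ps1, Cyp2d37-ps, Pdxk-ps, Pisd-ps2, Serpina4-ps1 and both probes of Pisd-ps3, were each above background on at least 3 of the 9 arrays, and 7 of them on all 9. Of 10 probes for pseudogenes of signalling and housekeeping proteins, 6 were above background on all 9 arrays and 4 on none. Of 11 probes for germ cell, chromatin and zinc finger families, 5 were above background on at least 3 arrays and 5 on none. Of 11 for immune and barrier families the numbers were 4 and 7. Of 10 for chemosensory receptor families they were 4 and 5. As a description of the whole set, 27 of 50 probes (54.0%) were above background on at least 3 arrays, against 63.5% of all probes on the array. On all 9 arrays it was 20 probes (40.0%) against 50.5%, and on none it was 21 (42.0%) against 29.2%.

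**Figure D1:**
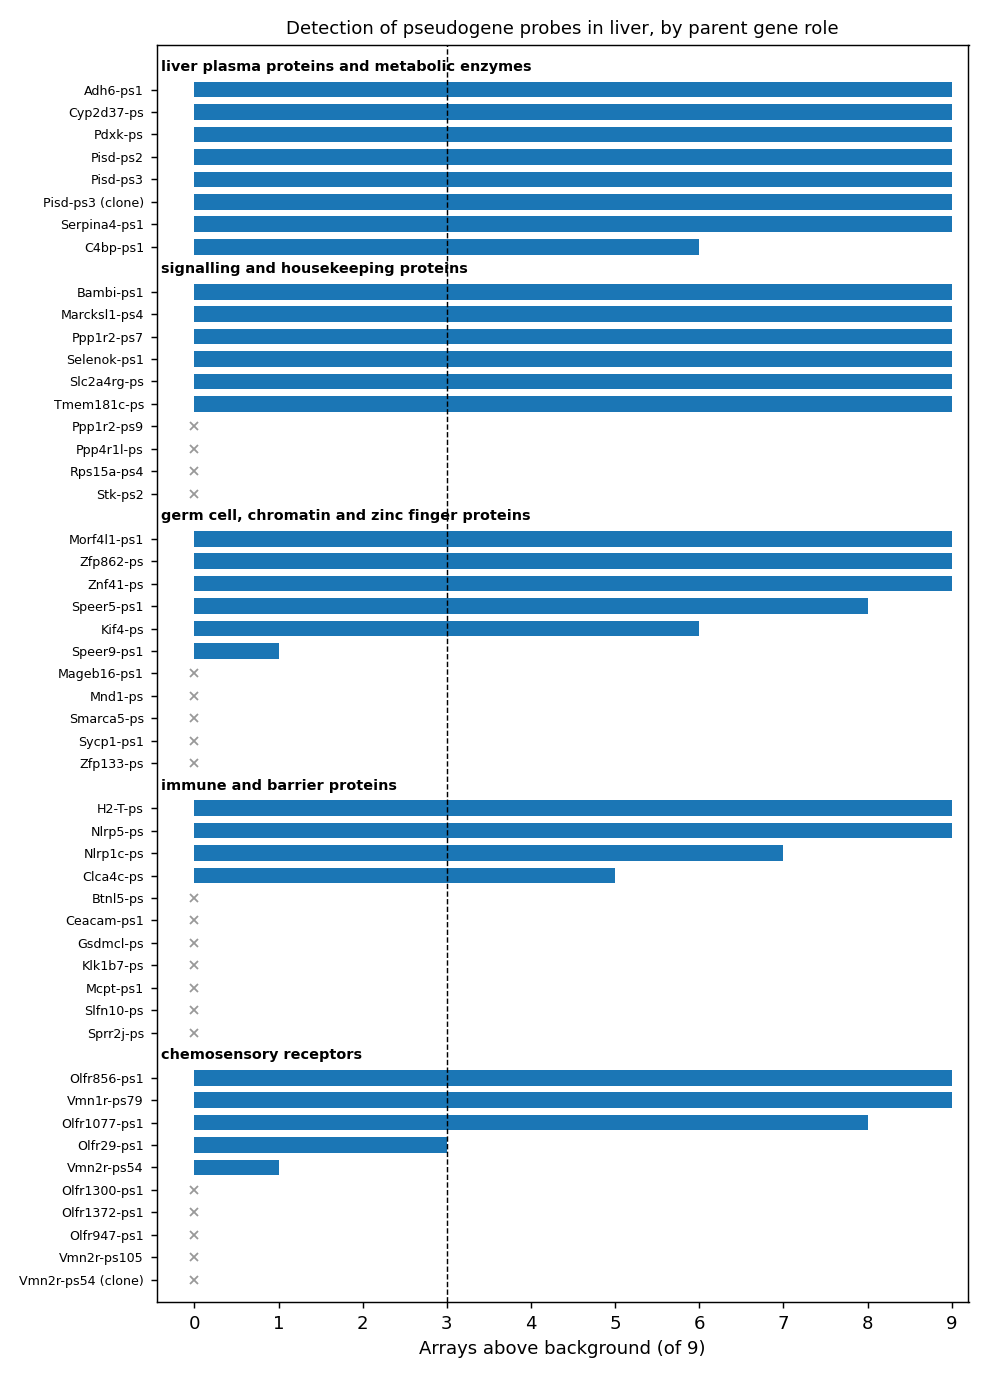
Number of arrays, of 9, on which each of the 50 pseudogene probes was above background, grouped by the role of the parent gene family. Bars show the number, grey crosses mark probes above background on none, and the dashed line marks the 3 arrays needed for testing. The 8 probes of plasma protein and enzyme families all reach it, whereas 7 of 11 probes of immune and barrier families have no bar.

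The probes never above background included those for pseudogenes of the butyrophilin-like, CEACAM, kallikrein, mast cell protease and Schlafen families (Btnl5-ps, Ceacam-ps1, Klk1b7-ps, Mcpt-ps1 and Slfn10-ps). The meiosis-related Sycp1-ps1 and Mnd1-ps and the X-linked Mageb16-ps1 were also never above background. Rps15a-ps4, a ribosomal protein pseudogene also known as Lethe and described elsewhere as an RNA that binds NF-kappaB, was below background on all 9 arrays, with levels between -5.24 and -4.21. Failure to rise above background on a single probe is a limit of the probe's signal and does not show that the RNA is absent. A pair of probes was above background on 1 array alone. The accession probe of Vmn2r-ps54, a pseudogene of the second family of vomeronasal receptors, was above background in the first control pool at -1.26 and lay between -4.93 and -3.06 elsewhere. The clone probe of Speer9-ps1 was above background in the first metformin pool at -3.00 and lay between -5.42 and -3.36 elsewhere. The count of pseudogene probes above background was 27, 26 and 27 in the control pools, 27, 24 and 23 in the high fat pools, and 27, 20 and 24 in the metformin pools. Over all 97836 probes it was 57972, 58113 and 63707 in the control pools and 60804, 56274 and 57027 in the high fat pools. In the metformin pools it was 62117, 53162 and 57823, so the second metformin pool had the lowest count in both sets.

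Among the 27 tested probes, 1 passed the test in any comparison: Speer5-ps1 fell in the metformin group relative to controls. In the comparison of the high fat group with controls, 0 of 27 passed limma's test at an adjusted p of 0.05, where 0.0451% of all 62036 tested probes did. At an unadjusted p under 0.05 there were 4, all lower (Vmn1r-ps79, Speer5-ps1, Kif4-ps and Clca4c-ps), where 12.1% of all probes had such a p and 7.20% were lower. Clca4c-ps entered the tests only through the control pools, where it is high, so its place in this count supports nothing. In the comparison of the metformin group with the high fat group, 0 passed limma's test, with a background of 0.00645%. At an unadjusted p under 0.05 there were 5, all lower (Speer5-ps1, Nlrp1c-ps, Slc2a4rg-ps, Znf41-ps and Tmem181c-ps), against 6.64% of all probes in either direction and 3.34% lower. In the comparison of the metformin group with controls, the 1 call stood against 0.546% of all probes, and 0.309% for lower calls alone. At an unadjusted p under 0.05 there were 10, of which 8 were lower, against 19.1% and 10.4%. With slide as a random block 7 probes passed in this comparison, in a fit that called 8243 of all probes. The unadjusted count for metformin against the high fat group went from 5 to 2 or 3 when any 1 pool of either group was left out, to 2 without the first or second high fat pool or the first metformin pool, and to 3 without any other pool of these groups.

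The 3 pools of one group lay wholly apart from the 3 of the other for 7 probes when the high fat group was set against controls, 6 of them lower, where 15.4% of all probes lay apart and 8.13% lay apart and lower. For the metformin group against the high fat group there were 7 such probes, 5 of them lower, with backgrounds of 16.2% and 8.15%. For the metformin group against controls there were 12, of which 10 were lower, with backgrounds of 24.9% and 12.5%. In mean level, 17, 14 and 20 of the 27 probes were lower in the 3 comparisons, in that order, and 51.8%, 48.7% and 50.7% of all probes were. The median difference of the 27 was -0.11, -0.06 and -0.15, beside -0.01, 0.01 and -0.01 over all tested probes. Probes that were bright in controls alone could enter the tested set through those arrays, so these counts describe the probes that passed the filter and not the 50. Over the 20 probes above background on all 9 arrays, 11, 11 and 13 were lower in mean.

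**Figure D2:**
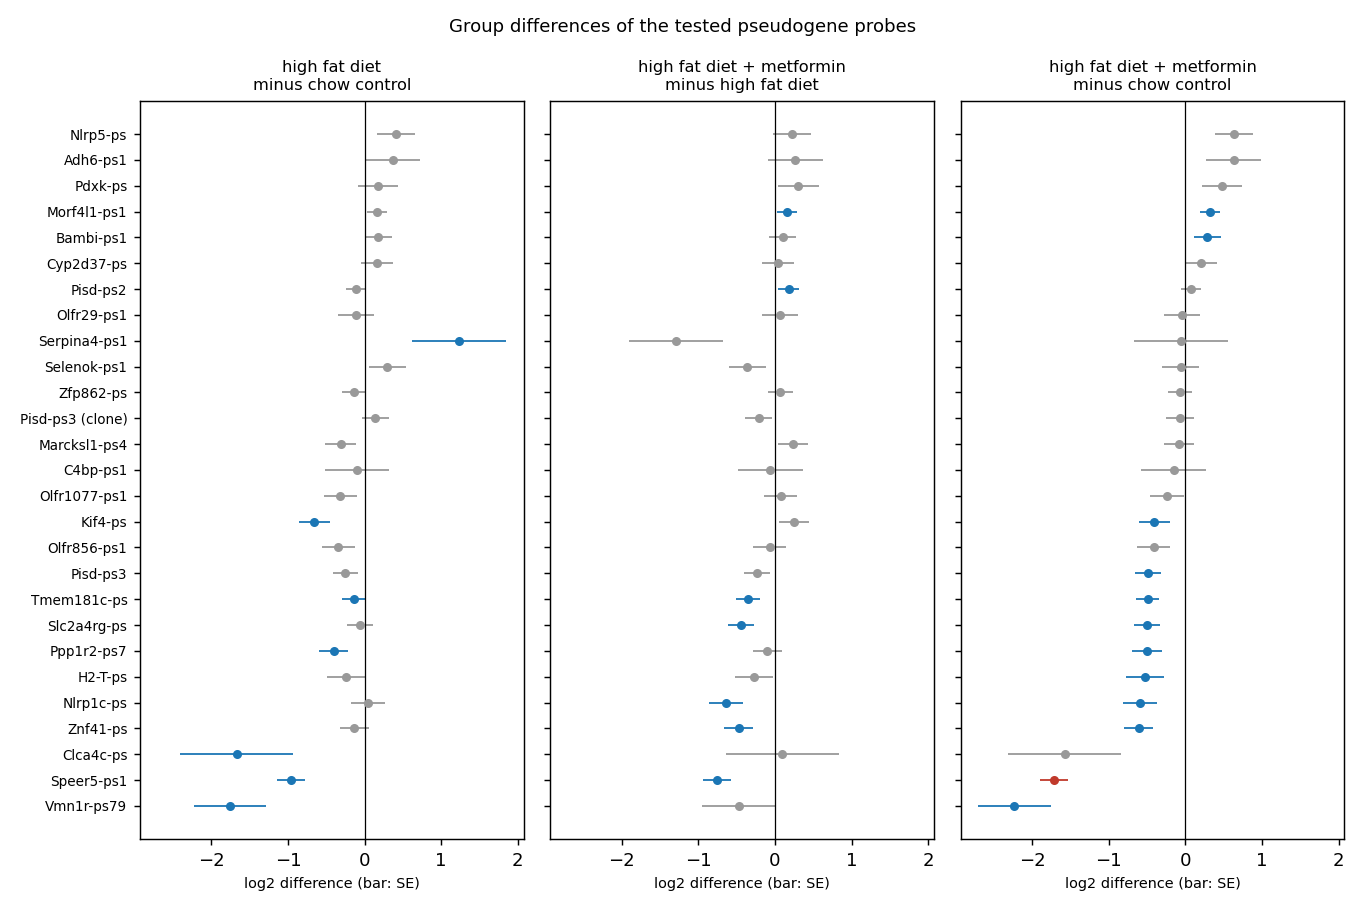
Log2 differences of the 27 tested pseudogene probes in the 3 comparisons, with the standard error of the limma fit as bars and probes ordered by their difference between metformin and control. Blue marks probes whose 3 pools of one group do not overlap those of the other, grey marks overlap, and red marks an adjusted p under 0.05. The single red point is Speer5-ps1 at -1.71, and Vmn1r-ps79 at -2.23 is farther from 0 with a wider bar.

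Speer5-ps1 belongs to the Speer family, a rodent family of glutamate-rich proteins associated with spermatogenesis. Its levels were -0.78, -1.14 and -1.36 in the control pools, -2.19, -2.17 and -1.79 in the high fat pools, and -2.87, -2.89 and -2.65 in the metformin pools. Every control pool lay above every high fat pool, and every high fat pool above every metformin pool. In signal units after the authors' background subtraction, controls read 141, 107 and 94.3, high fat pools 47.5, 50.8 and 74.4, and metformin pools 29.5, 27.5 and 28.1. The second metformin pool was not well above background, so the lowest group sat near the limit of detection.

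The group means of Speer5-ps1 were -1.09 ± 0.29, -2.05 ± 0.22 and -2.80 ± 0.13 (SD, n = 3 pools each). The level in the metformin group was 3.28-fold lower than in controls, with a log2 difference of -1.71 (SE 0.18) and an adjusted p of 0.0152 in limma. The high fat group differed from controls by -0.96 (SE 0.18), with an adjusted p of 0.122 in limma, and the metformin group from the high fat group by -0.75 (SE 0.18), with an adjusted p of 0.514. Neither of these passed the test. With normexp background correction the difference between metformin and control was smaller, at -0.75, and still passed (adjusted p = 0.0233 in limma). Within slide 1 the single high fat pool differed from the control mean by -1.10, and within slide 2 the metformin pools differed from the high fat pools by -0.90. The call was lost without the second control pool, at an adjusted p of 0.0984, and without the third metformin pool, at 0.0748. It was also lost with slide as a fixed term in the fit, where the difference was -2.00 with an adjusted p of 0.846. Without the first control pool 2 pseudogene probes passed, Speer5-ps1 and Pdxk-ps.

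The named relative of Speer5-ps1 on the array was Speer4cos, which RefSeq also lists as a transcribed pseudogene although its symbol does not end in -ps. Speer4cos stood at -0.78, -2.11 and -2.21 in controls, -3.04, -3.27 and -2.78 in the high fat pools, and -3.34, -4.01 and -3.89 in the metformin pools. The pools fell in the same order of groups with no overlap, and the first control pool was the highest by more than 1 log2 unit. Speer4cos fell by 2.05 on the log2 scale (SE 0.36, adjusted p = 0.0467 in limma) in the metformin group relative to controls, with 2 of 3 high fat pools and 1 of 3 metformin pools above background. This call held in 6 of 18 alternatives, and was lost with a replicate block (adjusted p = 0.0542 in limma), with slide as a fixed block (1.00), with normexp correction (0.104) and without a filter on dim probes (0.0715). Whether the Speer5-ps1 and Speer4cos probes respond to the same RNA was not tested. Speer9-ps1 could not be tested.

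**Figure D3:**
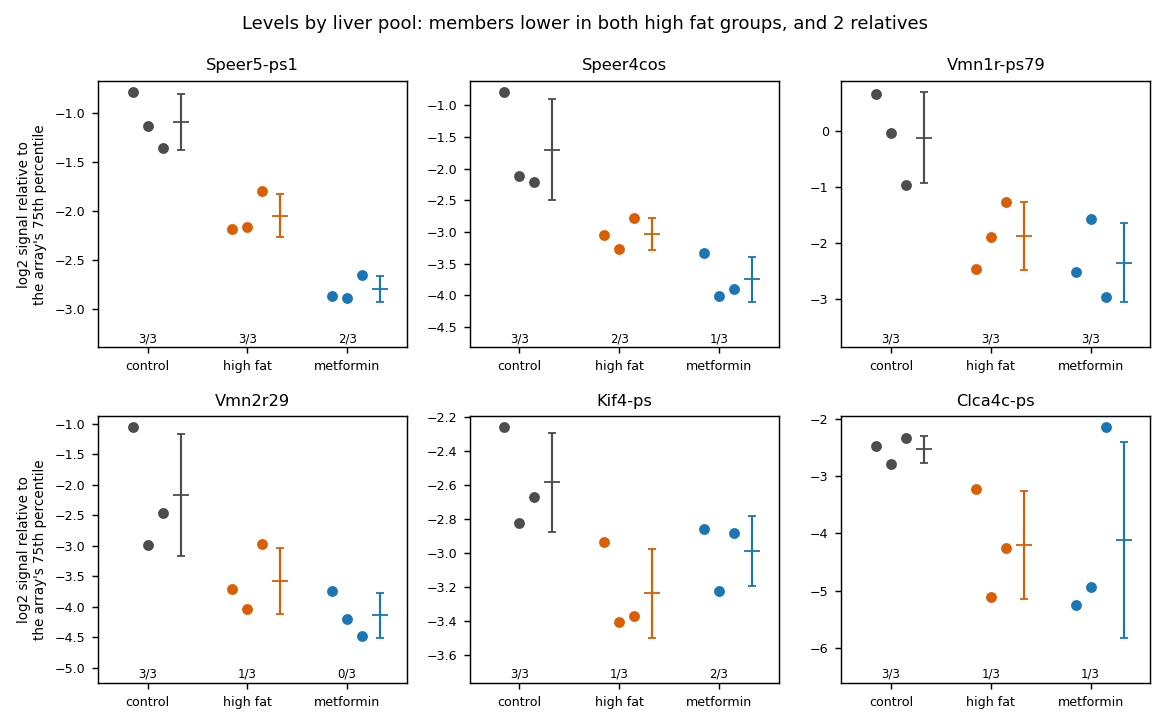
Levels (log2 signal less the 75th percentile of each array) in the 3 pools of each group for Speer5-ps1 and its relative Speer4cos, for Vmn1r-ps79 and the vomeronasal receptor gene Vmn2r29, and for Kif4-ps and Clca4c-ps. Points are pools, the bar beside them is the mean with its SD, and the fraction at the bottom gives pools above background. Speer5-ps1 steps down from -1.09 to -2.05 to -2.80 in group means without overlap, whereas metformin pools of Clca4c-ps span -5.25 to -2.15.

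Kif4-ps, a pseudogene of a kinesin motor that works on chromosomes in cell division, stood at -2.26, -2.82 and -2.67 in controls, -2.93, -3.41 and -3.37 in the high fat pools, and -2.86, -3.22 and -2.88 in the metformin pools. All control pools were above all pools of both other groups. The high fat group differed from controls by -0.65 (SE 0.20, adjusted p = 0.243 in limma), and only the first high fat pool was above background in that group. With normexp background correction this difference was -0.21. Morf4l1-ps1, whose parent encodes a chromodomain protein of histone acetyltransferase complexes, was higher in the metformin pools. It stood at 0.88, 0.68 and 0.68 in controls, 0.92, 1.01 and 0.80 in the high fat pools and 1.13, 1.06 and 1.02 in the metformin pools. Metformin pools were above all others, with a difference from controls of 0.33 (SE 0.13, adjusted p = 0.222 in limma). In the RefSeq table Morf4l1-ps1 overlaps Lpp, a gene for an adhesion-associated protein, and the strand of either was not used here.

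The zinc finger families had 2 tested pseudogenes, Znf41-ps and Zfp862-ps. Znf41-ps stood at 0.18, -0.04 and 0.60 in controls, 0.28, 0.07 and -0.00 in the high fat pools, and -0.58, -0.31 and -0.19 in the metformin pools. The metformin pools lay below the 6 others, and the control and high fat pools overlapped. The difference was -0.48 (SE 0.19, adjusted p = 0.716 in limma) from the high fat group and -0.61 (SE 0.19, adjusted p = 0.141) from controls. Zfp862-ps overlapped in all comparisons, with levels between -1.35 and -0.93.

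Vmn1r-ps79, of the first family of vomeronasal receptors, which sense pheromones in the nose, had the widest mean difference among the 27. Its levels were 0.66, -0.04 and -0.97 in controls, -2.47, -1.89 and -1.27 in the high fat pools, and -2.52, -1.58 and -2.95 in the metformin pools. All 9 arrays were above background, each control pool exceeded all pools of the other groups, and the high fat and metformin pools overlapped. Control means were -0.12 ± 0.82, against -1.88 ± 0.60 in the high fat group and -2.35 ± 0.70 in the metformin group (SD, n = 3 pools each). The high fat group was 3.38-fold lower than controls, a log2 difference of -1.76 (SE 0.47, adjusted p = 0.203 in limma). The metformin group was 4.70-fold lower than controls, a difference of -2.23 (SE 0.47, adjusted p = 0.0638). The metformin and high fat groups differed by -0.47, with a 95% interval from -1.53 to 0.58. Without the first control pool, the highest of the 9, the difference between metformin and control was -1.84, with an adjusted p of 0.0665. The RefSeq table places the coding genes Vmn1r243 and Vmn1r244 within 50 kb of Vmn1r-ps79.

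The olfactory receptor pseudogenes had 3 tested members among 6 probes. Olfr856-ps1 was above background on all 9 arrays, at 1.70, 1.21 and 0.87 in controls, 0.64, 1.16 and 0.96 in the high fat pools, and 0.85, 0.88 and 0.81 in the metformin pools. Its groups overlapped in each comparison, and the first control pool was the highest. The metformin group differed from controls by -0.42, with a 95% interval from -0.90 to 0.07 and an adjusted p of 0.331 in limma. Olfr1077-ps1 and Olfr29-ps1 were above background on 8 and 3 arrays and also overlapped throughout. Among relatives, the probe for the vomeronasal receptor gene Vmn2r29 was above background in 3 of 3 control pools, 1 of 3 high fat pools and 0 of 3 metformin pools. This probe entered the tests only through the controls, where it is high, so its values are a description. With signals below the dimmest that passed as detected on an array raised to it, the metformin group was at least 3.39-fold lower than controls. Vmn2r29 did not pass limma's test there. It passed in 1 of 18 alternatives, with log2 differences between -2.38 and -0.52.

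None of the 8 probes for pseudogenes of plasma protein and enzyme families passed limma's test in any comparison, and 1 of them, the accession probe of Pisd-ps3, had an unadjusted p under 0.05 in one. Cyp2d37-ps, of the cytochrome P450 subfamily that oxidises many drugs, stood at 3.80, 3.59 and 3.58 in controls, 3.76, 4.02 and 3.69 in the high fat pools, and 3.43, 4.26 and 3.91 in the metformin pools. The groups overlapped in each comparison, and the metformin group differed from controls by 0.21, with a 95% interval from -0.26 to 0.68. Adh6-ps1, of the alcohol dehydrogenase family, stood at 1.98, 2.98 and 2.21 in controls, 2.33, 2.84 and 3.11 in the high fat pools, and 2.28, 3.34 and 3.45 in the metformin pools. Its means of 2.39 ± 0.52, 2.76 ± 0.39 and 3.02 ± 0.64 (SD, n = 3 pools each) rested on overlapping pools, and the metformin group differed from controls by 0.63 (SE 0.36, adjusted p = 0.370 in limma). With slide as a fixed block that difference turned to -0.22. The coding genes Adh4, Adh5, Adh6a and Adh6b lie within 50 kb of Adh6-ps1 in the RefSeq table.

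Serpina4-ps1 is a pseudogene of kallistatin, a protease inhibitor that the liver secretes into plasma. Its levels were 0.45, 1.39 and 0.51 in controls, 1.67, 2.14 and 2.24 in the high fat pools, and -0.96, 1.15 and 1.98 in the metformin pools. The high fat pools lay above all control pools, and the metformin pools spread across and beyond the control range, with the first of them the lowest of the 9. The high fat group differed from controls by 1.23 (SE 0.61, adjusted p = 0.471 in limma), and the metformin group from the high fat group by -1.29 (SE 0.61, adjusted p = 0.773). Without the first metformin pool the latter difference in means was -0.45. The metformin group's SD of 1.52 exceeded that of controls (0.52) and of the high fat group (0.30). Serpina12, Serpina3a, Serpina3b and Serpina5 lie within 50 kb of Serpina4-ps1.

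C4bp-ps1, beside the gene for the complement inhibitor C4bp, was above background on 6 of 9 arrays, and its pools overlapped in each comparison, with levels between -3.67 and -1.94. Pdxk-ps, a pseudogene of the kinase that activates vitamin B6, stood at 0.23, -0.83 and -0.66 in controls, 0.06, -0.42 and -0.39 in the high fat pools, and -0.03, 0.05 and 0.14 in the metformin pools. The first control pool was the highest of the 9 and the other control pools the lowest, so the groups overlapped. The metformin group differed from controls by 0.48 (SE 0.26, adjusted p = 0.356 in limma), and by 0.81, with an adjusted p of 0.0444, when the first control pool was left out.

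The parent of Pisd-ps2 and Pisd-ps3 makes phosphatidylethanolamine in mitochondria. Pisd-ps2 stood at 2.67, 2.50 and 2.76 in controls, 2.63, 2.52 and 2.47 in the high fat pools, and 2.70, 2.65 and 2.80 in the metformin pools. Metformin pools were all above the high fat pools, by a mean of 0.18 (SE 0.13, adjusted p = 0.858 in limma). The accession probe of Pisd-ps3 stood at 1.24, 1.24 and 1.67 in controls, 1.09, 0.97 and 1.35 in the high fat pools, and 0.87, 0.83 and 1.01 in the metformin pools. Every metformin pool lay below every control pool, and the difference was -0.48 (SE 0.17, adjusted p = 0.169 in limma). The clone probe of Pisd-ps3 stood at 3.56, 3.64 and 4.02, then 3.78, 3.97 and 3.90, then 3.65, 3.93 and 3.42, and overlapped in each comparison. It differed by -0.07 (SE 0.18, adjusted p = 0.867 in limma) between metformin and control, where the probes of Pisd-ps3 gave unlike sizes. Between high fat and control they gave opposite signs, -0.25 for the accession probe and 0.14 for the clone probe. The difference between the probes was not tested.

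**Figure D4:**
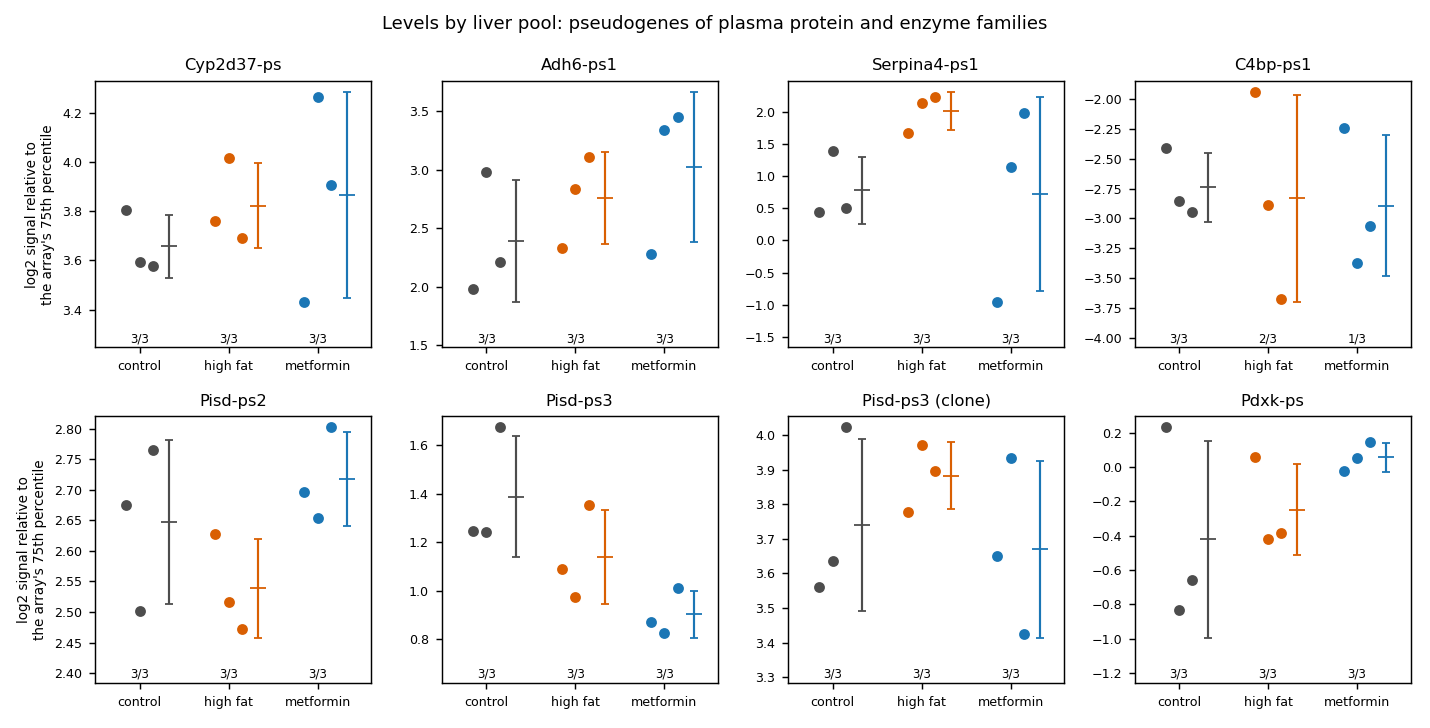
Levels (log2 signal less the 75th percentile of each array) in the 3 pools of each group for the 8 probes of plasma protein and enzyme pseudogenes. Points are pools, the bar beside them is the mean with its SD, and the fraction at the bottom gives pools above background. Vertical ranges differ between panels. The high fat pools of Serpina4-ps1 lie between 1.67 and 2.24, above the controls, and its metformin pools spread from -0.96 to 1.98.

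Among the pseudogenes of immune and barrier families, Clca4c-ps, of the calcium-activated chloride channel regulators, was above background in all 3 control pools but in 1 of 3 high fat and 1 of 3 metformin pools. Its levels were -2.48, -2.79 and -2.33 in controls, -3.23, -5.12 and -4.26 in the high fat pools, and -5.25, -4.93 and -2.15 in the metformin pools. The third metformin pool was the highest of the 9, and the high fat pools all lay below the controls, with a difference in means of -1.67. Since 2 of 3 high fat pools were below background and the probe entered the tests only through the controls, this value is a description. It was -0.38 with normexp background correction and -0.70 with slide as a fixed block. Nlrp1c-ps, a pseudogene of an inflammasome sensor and overlapping its coding relative Nlrp1b in the RefSeq table, stood at -1.88, -2.64 and -2.31 in controls, -2.04, -2.24 and -2.43 in the high fat pools, and -2.68, -2.73 and -3.21 in the metformin pools. The metformin pools were below all others, and 2 of them, the second and the third, were below background. The difference from the high fat group was -0.64 (SE 0.22, adjusted p = 0.661 in limma), and -0.15 with normexp background correction.

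Nlrp5-ps, whose parent acts in the oocyte and early embryo, stood at 1.91, 2.66 and 2.11 in controls, 2.42, 2.77 and 2.72 in the high fat pools and 2.43, 3.25 and 2.90 in the metformin pools. The pools overlapped in each comparison, and the metformin group differed from controls by 0.64 (SE 0.25, adjusted p = 0.210 in limma). In the RefSeq table Nlrp5-ps overlaps Vmn1r90 and Obox4-ps3 among others, and the position of its probe was not used here. H2-T-ps, of the class I histocompatibility genes, lay between -2.32 and -1.15, with metformin pools below control pools by 0.52 in mean (a difference of -0.52, adjusted p = 0.287 in limma).

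The tested pseudogenes of signalling and housekeeping families were all above background on 9 arrays. Tmem181c-ps, of a transmembrane protein family, stood at -0.22, -0.41 and -0.43 in controls, -0.51, -0.44 and -0.53 in the high fat pools, and -0.90, -0.59 and -1.04 in the metformin pools. Like Speer5-ps1, it had groups in the order control, high fat, metformin with no overlap, though control and high fat pools were close together. The metformin group differed from the high fat group by -0.35 (SE 0.15, adjusted p = 0.737 in limma) and from controls by -0.49 (SE 0.15, adjusted p = 0.137). Slc2a4rg-ps, whose parent encodes a regulator of the insulin-responsive glucose transporter gene, stood at 0.24, 0.40 and 0.74 in controls, 0.18, 0.41 and 0.62 in the high fat pools, and -0.10, -0.01 and -0.01 in the metformin pools. Control and high fat pools ranged over nearly the same levels, and the metformin pools lay below both. The difference was -0.45 (SE 0.17, adjusted p = 0.697 in limma) from the high fat group and -0.50 (SE 0.17, adjusted p = 0.164) from controls. In the RefSeq table Slc2a4rg-ps overlaps Zbtb46.

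Ppp1r2-ps7, a pseudogene of a protein phosphatase 1 inhibitor, stood at -2.18, -2.33 and -2.22 in controls, -3.06, -2.54 and -2.35 in the high fat pools, and -2.81, -2.53 and -2.90 in the metformin pools. Controls were above both other groups, with the third high fat pool just below the lowest control, and the differences were -0.40 (SE 0.19, adjusted p = 0.452 in limma) and -0.50 (SE 0.19, adjusted p = 0.205). With normexp background correction the difference between high fat and control was -0.12. Bambi-ps1, of a decoy receptor of TGF-beta signalling, stood at 2.08, 2.07 and 2.08 in controls, 2.41, 2.38 and 1.98 in the high fat pools, and 2.20, 2.66 and 2.22 in the metformin pools. The metformin pools were above the controls, by a mean of 0.29 (SE 0.18, adjusted p = 0.410 in limma). Selenok-ps1, of a selenoprotein of the endoplasmic reticulum, and Marcksl1-ps4, of a MARCKS-like actin-binding protein, overlapped in all comparisons. Their levels lay between -1.96 and -0.99 and between 2.08 and 2.97. The differences between the high fat group and controls were 0.30 (adjusted p = 0.697 in limma) for Selenok-ps1 and -0.31 (adjusted p = 0.595) for Marcksl1-ps4.

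Relatives were taken by the family letters of the gene symbol, so those under Zfp, Ppp or Stk need not share a parent with the pseudogene. These relatives gave 44 probes, of which 33 were tested. Of these, 0, 0 and 1 passed limma's test in the comparisons of high fat with control, metformin with high fat and metformin with control, the 1 being Speer4cos, whose call held in 6 of 18 alternatives as given above, and 5, 4 and 8 had an unadjusted p under 0.05. The shares over all tested probes at that p were 12.1%, 6.64% and 19.1%. In mean, 10, 20 and 18 of the 33 were higher, beside 48.2%, 51.3% and 49.3% of all probes. The relative Cyp2d13 of Cyp2d37-ps is also listed by RefSeq as a transcribed pseudogene. Its means were 3.92 ± 0.10, 3.99 ± 0.07 and 4.16 ± 0.12 (SD, n = 3 pools each) in control, high fat and metformin pools. The relative H2-Q5 of H2-T-ps, which RefSeq lists as a transcribed pseudogene, was higher in all metformin pools than in the high fat pools, by 0.55 in mean (SE 0.17, adjusted p = 0.611 in limma). H2-T-ps differed by -0.28 between the same groups, and the difference between these effects was not tested. Kif2a, a relative of Kif4-ps, was higher in all high fat pools than in the control pools. Its mean difference was 0.49 (SE 0.16, adjusted p = 0.272 in limma), and that of the relative Kif2c was -0.10. Zfp36l1, an RNA-binding zinc finger gene, differed from controls by 0.65 in the metformin group (SE 0.17, adjusted p = 0.0957 in limma), and Gsdme, of the pore-forming gasdermins, by -0.62 (SE 0.18, adjusted p = 0.117). No other gene of the Adh, C4bp, Pdxk or Pisd families had a probe named through these identifiers, so Adh6-ps1, C4bp-ps1, Pdxk-ps, Pisd-ps2 and Pisd-ps3 could not be set beside a family member.

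Where a pseudogene lies was also compared with its detection. Of 47 genes placed in the RefSeq table, 17 had a coding gene of the same family within 50 kb, and 8 of these were above background on at least 3 arrays. Of the 30 without such a neighbour, 17 were. Overlap with some other gene was listed for 12 of the pseudogenes, and 6 of these were detected. These shares of genes are descriptions, and 63.5% of all probes on the array were above background on at least 3 arrays. Speer5-ps1 had no coding family member within 50 kb and no overlapping gene. The same held for other detected pseudogenes, such as Kif4-ps, Bambi-ps1, Marcksl1-ps4, Selenok-ps1 and Tmem181c-ps. It also held for some never above background, such as Smarca5-ps, Stk-ps2 and Rps15a-ps4.

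The precision of these values is limited by 3 arrays a group. A probe tested alone by permuting 3 arrays against 3 cannot reach a two-sided p below 0.1, and limma's adjusted p-values borrow the spread of the other probes. The median SD of the 27 probes was 0.29 in controls, 0.23 in the high fat pools and 0.20 in the metformin pools. Over all tested probes it was 0.24, 0.20 and 0.17 in the same groups. The difference of Speer5-ps1 between metformin and control kept its sign in 18 of 18 alternatives, between -2.00 and -0.75, and passed the threshold in 15. That of Vmn1r-ps79 kept its sign in 19 of 19, between -2.82 and -1.23, and passed in 2.

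**Figure D5:**
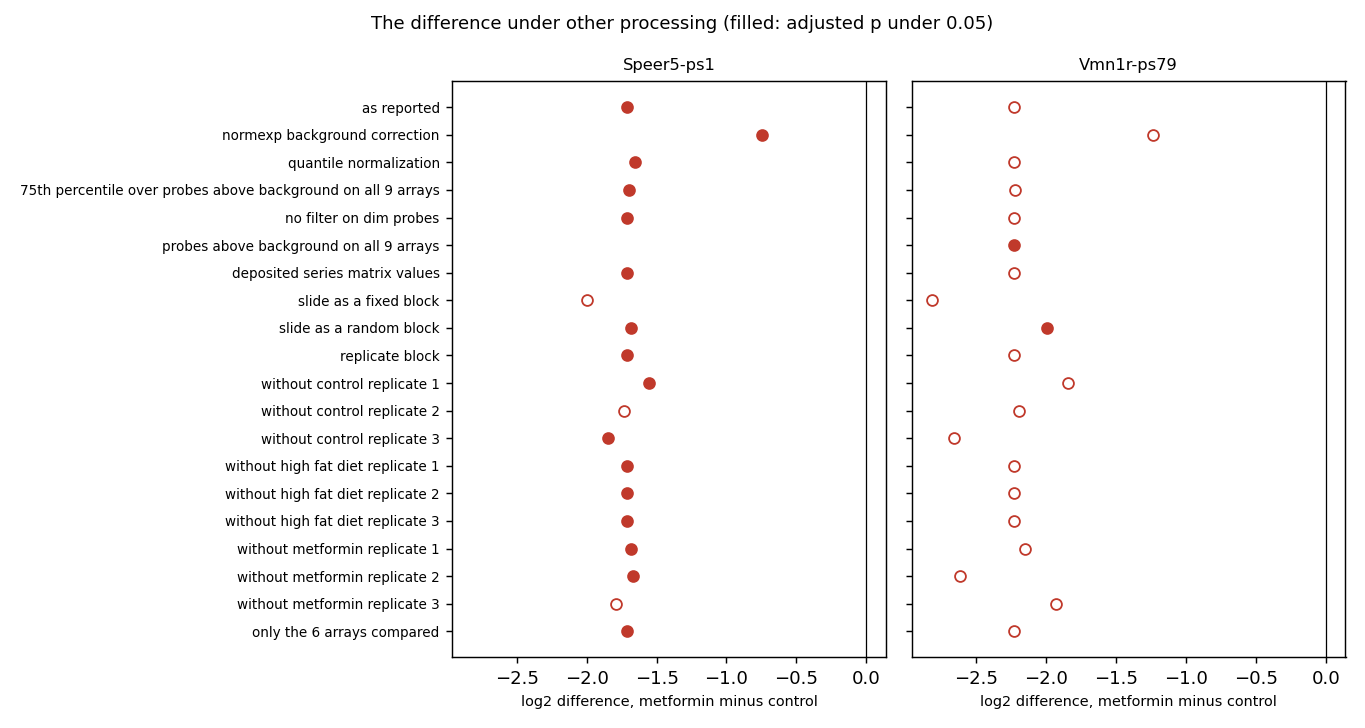
Log2 difference between metformin and control pools for Speer5-ps1 (left) and Vmn1r-ps79 (right) as reported and under each alternative processing, 1 per line. Filled points have an adjusted p under 0.05. All points lie below 0, most of those of Speer5-ps1 are filled, and those of Vmn1r-ps79 are filled with slide as a random block and over probes above background on all 9 arrays.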

How the data were processed

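RNA of 9 liver pools was hybridised to single-colour Agilent arrays, 1 Cy3-labelled pool each. Per the file headers, the authors used Agilent Feature Extraction 11.5.1.1 to read the spots, and the submitters' processing notes name version 10.7. Per the file headers, the authors' processed signal is a linear intensity from which background had been subtracted. Their deposited series table is on the log2 scale and equalled the log2 processed signal less a constant for each array, within 0.01 for nearly all probes. Whether that constant is the array's 75th percentile was not checked. The build in the headers is mm9. The RefSeq table used for names and neighbours is of another build (GRCm38.p6), so no coordinates are printed.

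Outlier spots were left out (73 to 192 of 175906 per array), the log2 signals of a probe's spots were averaged, and the 75th percentile of the array was taken off. Detection on an array meant that a share of 0.5 or more of the spots passed the software's background test. Probes detected on 3 or more of 9 arrays, with no missing value, entered the tests (62036 probes). Group means were fitted to all 9 arrays with limma 3.58.1 (R 4.3.3; lmFit, eBayes), and p-values were adjusted by Benjamini-Hochberg over these probes, with 0.05 as the threshold. The code of the fit was run on simulated data with known changes, independent noise and no slide effect. That run does not test the differences given here. Intervals are 95% intervals of the limma fit, whose residual degrees of freedom were 6 and prior ones 3.75. Nothing in the labels says more of the pools than that they are separate biological samples.

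The pseudogenes, the parent families and their roles were chosen with earlier results of these data known; 5 probes with an ambiguous name were left out. Named with values were the members called in any comparison, the 5 with the smallest p in each direction of each comparison, the best of each family with several tested members, and, added after their values were seen, the other members printed with values. Relatives printed were those called, only some of those with their family's smallest p, and Kif2c. The alternatives were normexp background correction, quantile normalization, another percentile, other filters, the deposited table, slide or replicate number as a block, each pool left out, and only the arrays compared. The files lack the mean spot signal, so normexp was run on the median signal (offset 50). The parents' names were matched through the same identifiers, and no sequences were used.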

Additional observations from a re-analysis of the deposited data

How the results depend on the processing

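The counts of called pseudogene probes for high fat diet against control and for metformin against high fat diet were 0 under each of the 19 alternatives. The count for metformin against control, 1 as reported, was 0 with slide as a fixed block, where controls and metformin pools are joined only through the high fat pools, and Speer5-ps1 there differed by -2.00 with an adjusted p of 0.846. It was 7 with slide as a random block (Vmn1r-ps79, Speer5-ps1, Znf41-ps, Nlrp1c-ps, Pisd-ps3 and Tmem181c-ps lower, Nlrp5-ps higher), a fit whose estimated correlation within slides was negative (-0.17) and which called 8243 of all probes. Leaving out 1 pool at a time gave counts of 0 to 2: 0 without the second control or the third metformin pool, and 2 without the first control pool. Over the probes above background on all 9 arrays the count was 1, but the probe was Vmn1r-ps79 (adjusted p = 0.0419), since Speer5-ps1 was not among them. The sign of Adh6-ps1 between metformin and control turned with slide as a fixed block, to -0.22; the cause was not tested.

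The labels do not say whether pools of the same number belong together. Over 9 pairs of the same number, the correlation of deviations from the group means was -0.09 to 0.13 and passed 0.1 in 1 pair. Such values cannot settle whether the samples were paired. With a replicate block the counts of called pseudogene probes were 0 for high fat diet against control, 0 for metformin against high fat diet and 1 for metformin against control, again Speer5-ps1 (adjusted p = 0.0409). The adjusted p of Speer5-ps1 for metformin against control ranged from 0.00178 to 0.846 over its alternatives. Normexp correction gave the smallest size, -0.75 (adjusted p = 0.0233), and raises dim signals by its offset. Speer4cos passed in 6 of 18 alternatives. The number of pseudogene probes above background on at least 3 arrays was 26 or 27 with 1 pool left out. Signal over background limits 7 of the 27 tested probes, which were below background on some arrays.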
